A study of Mus musculus with 2 samples.

Results

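Retinal bipolar cells that carried transcripts of secretagogin and of a set of cone bipolar transcription factors and adhesion genes were examined in CD31-bead-enriched mouse retina at postnatal day 6. They were chosen by a rule on single-cell counts. A cell had to hold at least 1 unique molecular identifier (UMI, a counted RNA molecule) of at least 3 of the 6 genes Scgn, Zfhx4, Cdh8, Lhx3, Vsx1 and Tmem215. It also had to hold fewer than 3 of the 6 genes Grm6, Trpm1, Isl1, Prkca, Cabp5 and Gng13, called ON genes here. They are not all particular to ON bipolar cells, since Cabp5 is also listed as a marker of an OFF cone bipolar type. Barcodes had to pass 1000 UMIs and 500 genes, with 1 to 10% of UMIs from mitochondrial genes. The rule found 356 of 10347 cells, called Scgn Vsx1 cells here. Counts of these 12 genes chose the cells, so their values below describe the choice and support nothing.

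Bipolar cells carry the light signal from photoreceptors to the inner retina. Cone bipolar cells are divided into OFF types, which respond to glutamate through ionotropic receptors, and ON types, which use the metabotropic receptor encoded by Grm6 and the channel encoded by Trpm1. The types share the transcription factor Otx2, and Vsx1 is known from mouse knockouts as a regulator of OFF and some ON cone bipolar types. In the first postnatal week of the mouse, bipolar cells are still being born and are growing their axons.

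There was 1 library per genotype. The Alk1 ECKO library came from pups with floxed Alk1 alleles (Alk1f/f) and a CreERT2 transgene under Cdh5, a gene whose promoter is active in endothelial cells. The control library came from Alk1f/f pups, so both groups carried the floxed alleles. How many pups were pooled, when Cre was induced and which exons were floxed could not be learned from the labels. CD31 beads enrich endothelial cells, so the share of neurons in a library depends on that enrichment. With no replicates, every difference between genotypes is a difference between these 2 libraries, and no test was made. Intervals are 95% intervals that cover counting error only. Levels are class sums of UMIs, scaled to counts per 1000000 UMIs (CPM).

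The Alk1 ECKO library held 5308 barcodes with a median of 2564.5 UMIs, and the control library held 8739 with a median of 3707. The libraries shared 20 barcodes, and 0 of these belonged to an Scgn Vsx1 cell in either. Acvrl1, the gene for ALK1, stood at 113 CPM (110 to 116) in 1375 Alk1 ECKO cells with at least 4 of 12 endothelial genes, against 113 CPM (107 to 119) in 330 control cells. Since the deleted exons are unknown here, this value does not check the genotype label. In Scgn Vsx1 cells Acvrl1 had 1 UMI in the Alk1 ECKO library and 1 in the control library.

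Scgn Vsx1 cells made up 46 of 2764 Alk1 ECKO cells (1.66%, Clopper-Pearson interval 1.22 to 2.21) and 310 of 7583 control cells (4.09%, 3.65 to 4.56). Among cells that met either bipolar rule or both, they were 46 of 81 in the Alk1 ECKO library (56.8%, 45.3 to 67.8) and 310 of 782 in control (39.6%, 36.2 to 43.2). Their share was thus lower in Alk1 ECKO over all cells and higher among bipolar cells. Cells that met both rules were 18 of 81 (22.2%) in Alk1 ECKO and 274 of 782 (35.0%) in control. Their median depths were 5778.5 and 6702 UMIs. With no limit on ON genes, 64 of the 81 and 584 of the 782 cells would count as Scgn Vsx1 cells. The difference among bipolar cells thus depends on that limit. Median depth was 4796.5 UMIs per Scgn Vsx1 cell (2478 to 25255) in Alk1 ECKO and 5308.5 (1192 to 66773) in control.

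The rule left a graded edge. In the Alk1 ECKO library 16, 10, 11 and 9 Scgn Vsx1 cells held 3, 4, 5 and 6 of the selecting genes, and in control 93, 77, 85 and 55 did. Just outside the rule, with exactly 2 selecting genes, lay 25 Alk1 ECKO cells and 184 control cells. Vsx1 had 357 CPM just inside and 72.4 CPM just outside in Alk1 ECKO, and 111 and 34.4 CPM in control. Zfhx4 had 603 CPM inside and 190.0 CPM outside in Alk1 ECKO, and 594 and 288 CPM in control. The rod gene Rp1 ran the other way, with 246 CPM inside and 656 CPM outside in Alk1 ECKO, and 1302 and 1530 CPM in control.

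Vsx1 is a homeobox transcription factor encoded at chr2:150680702-150689360 on the minus strand (GENCODE vM21, mm10). It had 707 CPM in Alk1 ECKO Scgn Vsx1 cells (190 UMIs) and 507 CPM in control (1140 UMIs), against 80.5 CPM and 41.9 CPM in ON bipolar cells of the same libraries. ON bipolar cells here are the 17 Alk1 ECKO and 198 control cells that held at least 3 of the 6 ON genes and fewer than 3 of the selecting genes. Scgn encodes a calcium-binding protein at chr13:23953456-23991214, minus strand. Its level was 238 CPM in Alk1 ECKO and 280.1 CPM in control, against 0 UMIs and 16.6 CPM in ON bipolar cells. Lhx3, a LIM homeobox factor, had 242 CPM in Alk1 ECKO and 164 CPM in control, against 0 UMIs and 2.87 CPM. Cdh8, a cadherin, had 261 CPM in Alk1 ECKO and 190 CPM in control, against 24.1 CPM and 8.61 CPM. These differences follow from the choice of cells.

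Not every Scgn Vsx1 cell held both genes of its name. Scgn had a UMI in 58.7% of Alk1 ECKO and 66.8% of control Scgn Vsx1 cells, against 0.408% and 1.02% of rods, which should lack it. Vsx1 had a UMI in 71.7% and 64.5%, against 1.43% and 0.939% of rods. Rods had median depths of 2478 UMIs in Alk1 ECKO and 2946 in control, below those of Scgn Vsx1 cells. With every cell thinned to 2000 UMIs, the Scgn shares were 39.1% in both libraries, and the Vsx1 shares were 54.3% in Alk1 ECKO and 45.3% in control. Thinning left out 0 Alk1 ECKO and 3 control Scgn Vsx1 cells that were shallower.

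The bipolar identity was checked with genes outside the rule. Lhx4, a LIM homeobox factor known in mouse from cones and bipolar cells, had a UMI in 58.7% of Alk1 ECKO and 72.6% of control Scgn Vsx1 cells, against 9.39% and 13.1% of rods. Thinned, the Lhx4 shares were 45.7% in Alk1 ECKO and 44.3% in control, against 7.84% and 6.80% of rods. Cones were not set apart as a class, so Lhx4 was not compared with cones. Of the cone genes, Gngt2 had a UMI in 29 of 46 Alk1 ECKO and 229 of 310 control Scgn Vsx1 cells. Gnat2 was found in 9 and 67 cells, Cngb3 in 4 and 69, Opn1sw in 0 and 12, and Arr3 in 0 and 5. Otx2, which photoreceptors express as well, had a UMI in 97.8% of Alk1 ECKO and 99.4% of control Scgn Vsx1 cells, against 75.1% and 88.2% of rods. Thinned, the Otx2 shares were 87.0% and 88.9%, against 66.9% and 76.9% of rods. Markers of ganglion cells summed to 11.2 CPM in Alk1 ECKO and 29.3 CPM in control, with 9 and 4 of 10 genes at 0. Mural markers summed to 3.72 and 10.2 CPM, with 9 and 7 of 10 genes at 0. Microglial markers summed to 3.72 and 5.78 CPM, with 9 and 4 of 10 genes at 0. The horizontal and amacrine cell lists were not as low. Of the horizontal list, Ndrg1 had a UMI in 28 Alk1 ECKO and 187 control cells and Prox1 in 13 and 164. Onecut2 was held by 18 and 139, Sept4 by 16 and 122 and Tfap2b by 1 and 9. Onecut1 was held by 0 and 5, Calb1 by 0 and 1 and Lhx1 by 0 and 0. Of the amacrine list, Meis2 was held by 6 and 88, Slc6a9 by 1 and 41, Pax6 by 1 and 28 and Chat by 0 and 0.

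Rod transcripts went against the label in part of the cells. At least 4 of the 6 rod genes Nrl, Nr2e3, Gnat1, Pdc, Rom1 and Pde6b were present in 7 of 46 Alk1 ECKO cells (15.2%) and 87 of 310 control cells (28.1%). These cells were deep, with median UMI counts of 8485 and 9608. In them 12 rod genes gave a median of 1.28% of UMIs in Alk1 ECKO (0.376 to 1.93) and 1.16% in control (0.0459 to 2.45), against 2.34% and 1.97% in rods. The other Scgn Vsx1 cells had medians of 0.0350% and 0.0255%. Müller glia genes, at least 4 of 12, were held by 1 Alk1 ECKO and 25 control cells, amacrine genes by 1 and 7, and endothelial genes by 1 and 1. In all, 7 of 46 Alk1 ECKO and 96 of 310 control cells (31.0%) held markers of another class. Cone and horizontal cell genes were not part of this count.

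**Figure D1:**
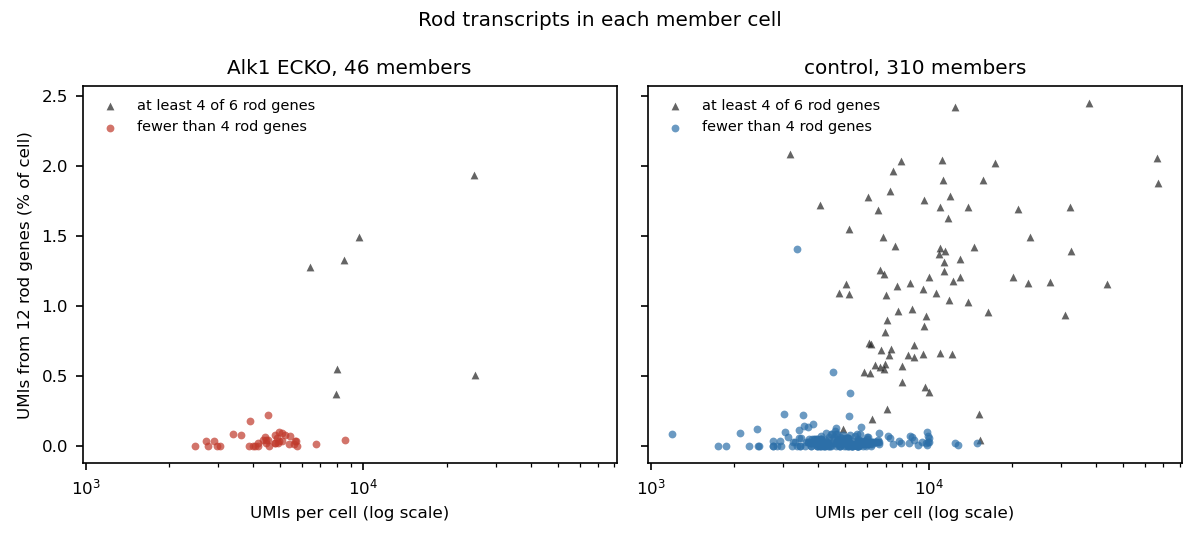
Each point is 1 Scgn Vsx1 cell (members in the panel titles), with its UMIs on a log axis and the percent of its UMIs from 12 rod genes, in the Alk1 ECKO library (left) and the control library (right). Triangles, 7 in Alk1 ECKO and 87 in control, hold at least 4 of 6 rod genes and reach 1.93% and 2.45%, while circles have medians of 0.0350% and 0.0255% and reach 0.221% and 1.40%.

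Without these cells, 39 Alk1 ECKO cells (177918 UMIs) and 214 control cells (1060773 UMIs) remained, called the cleaned set here. The cleaned set was chosen after the data had been seen. In it rod markers summed to 444 CPM in Alk1 ECKO and 446 CPM in control, against 4105.5 and 6749 CPM in all Scgn Vsx1 cells. Endothelial markers summed to 56.2 CPM in Alk1 ECKO and 33.0 CPM in control, against 443 and 87.6 CPM in all Scgn Vsx1 cells. Rods, which should lack them, had 1428 and 387 CPM of the endothelial list. The Alk1 ECKO Scgn Vsx1 cell with the most UMIs, 25255, held 5 of 6 rod, 6 of 12 Müller and 11 of 12 endothelial genes. Several results are given with and without such cells below, and what produced the mixed profiles was not tested.

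**Figure D2:**
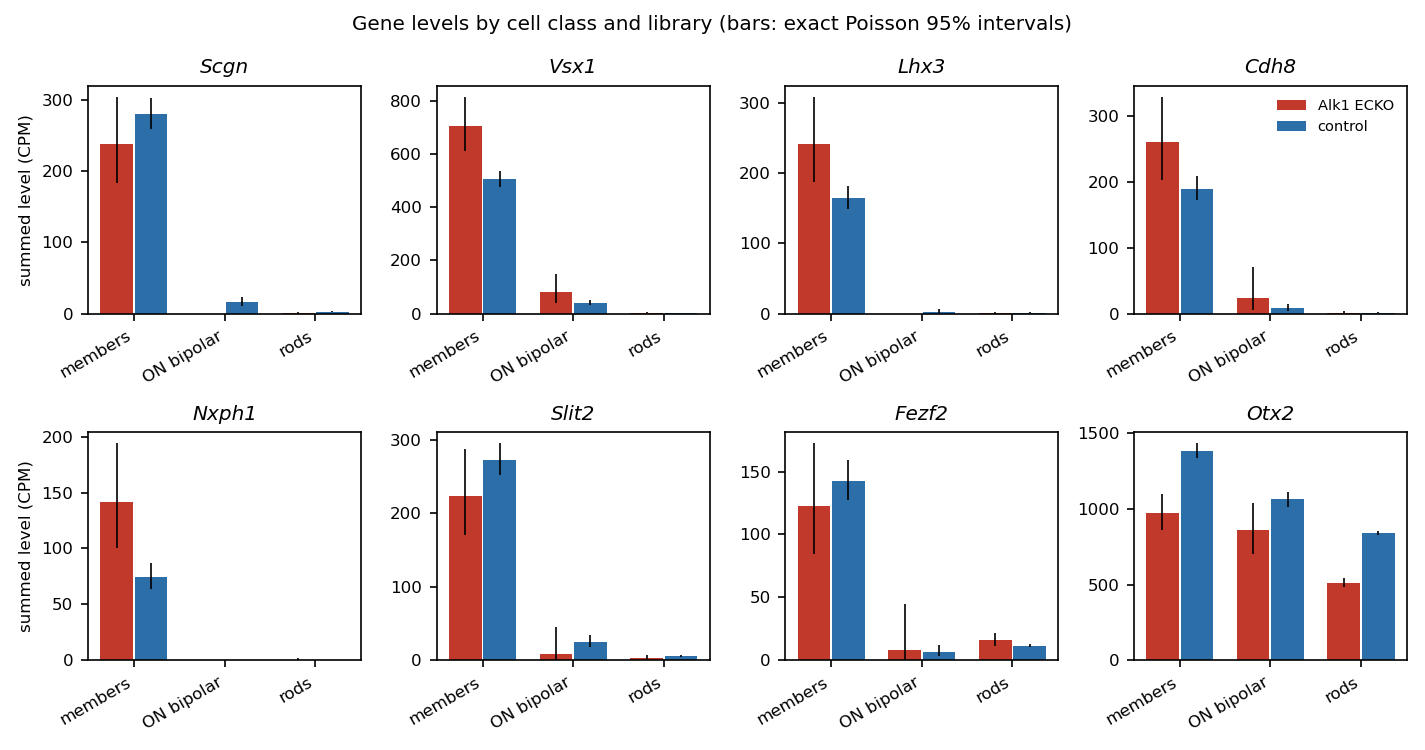
Summed levels (CPM) of the selecting genes Scgn, Vsx1, Lhx3 and Cdh8 and of Nxph1, Slit2, Fezf2 and Otx2 in Scgn Vsx1 cells (members), ON bipolar cells and rods, Alk1 ECKO in red and control in blue, with exact Poisson 95% intervals from 1 library each. Nxph1 stands at 141 CPM in Alk1 ECKO and 74.7 CPM in control Scgn Vsx1 cells and has 0 UMIs in ON bipolar cells, while Otx2 is present in all 3 classes.

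The comparison with ON bipolar cells asked which genes outside the rule differed between the bipolar classes. A gene counted as measured with at least 30 UMIs over both classes in each library. It was called when the whole interval of its ratio lay beyond 1.5-fold in the same direction in both libraries. Of 2629 measured genes, 13 were higher in Scgn Vsx1 cells (0.494%) and 6 were lower (0.228%). The median log2 ratio of all measured genes was 0.03 in Alk1 ECKO and 0.01 in control. In the cleaned set 17 of 1614 genes were higher (1.05%) and 6 were lower (0.372%), and 10 and 5 of these were called with all cells too. The 17 ON bipolar cells of the Alk1 ECKO library limited this comparison. They gave 124290 UMIs, against 268665 from Scgn Vsx1 cells, so a gene could pass the UMI minimum through Scgn Vsx1 cells alone. Nxph1, Fezf2 and Irx5 did so in Alk1 ECKO, with 38, 33 and 34 UMIs in Scgn Vsx1 cells. The numbers of higher and lower calls thus depend on this minimum.

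Nxph1 led the adhesion genes. It encodes neurexophilin, a secreted ligand of neurexins, at chr6:8948431-9249032 on the plus strand. It had 38 UMIs in Alk1 ECKO Scgn Vsx1 cells (141 CPM) and 168 UMIs in control (74.7 CPM), against 0 UMIs in ON bipolar cells of both libraries. With 3 UMIs per library in place of 0, the log2 ratio was 2.55 in Alk1 ECKO and 5.44 in control. These are values at the floor and not interval bounds. Nxph1 reached 30.4% of Alk1 ECKO and 19.0% of control Scgn Vsx1 cells, against 0.204% and 0.107% of rods, or 26.1% and 13.7% after thinning. None of the 17 Alk1 ECKO ON bipolar cells held an Nxph1 UMI, and by the limit of 3 counts for a count of 0 this allows a share of up to 17.6% (Clopper-Pearson upper bound 19.5%). Most Scgn Vsx1 cells held no Nxph1 UMI in either library.

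Slit2, a secreted axon guidance ligand of Robo receptors encoded at chr5:47983138-48307733 (plus strand), was present in more cells. Its level was 223 CPM in Alk1 ECKO Scgn Vsx1 cells, against 8.05 CPM (1 UMI) in ON bipolar cells, a log2 ratio of 4.79 (2.26 to 10.12). In control it was 273 CPM, against 25.3 CPM, a log2 ratio of 3.43 (2.99 to 3.91). Slit2 had a UMI in 23 of 46 Alk1 ECKO and 166 of 310 control Scgn Vsx1 cells, against 1.63% and 2.63% of rods. The receptor gene Robo1 had a UMI in 0 of 46 Alk1 ECKO Scgn Vsx1 cells. By the same limit this allows a share of up to 6.52% (Clopper-Pearson upper bound 7.71%). The Robo1 share was 1.61% in control Scgn Vsx1 cells, and 2.45% and 2.71% in Alk1 ECKO and control rods. Whether rods lack Robo1 was not tested, so no background was set for it. Robo2 had 40.9 CPM in Alk1 ECKO Scgn Vsx1 cells, against 88.5 CPM in ON bipolar cells, and 52.5 against 168 CPM in control. The log2 ratio of Robo2 was -1.11 (-2.46 to 0.23) in Alk1 ECKO, where it was under the UMI minimum, and -1.68 (-2.0 to -1.37) in control.

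Among transcription factors, Fezf2 and Irx5 were called higher. Fezf2, a zinc finger factor, had 123 CPM against 8.05 CPM (1 UMI) in Alk1 ECKO and 143 CPM against 6.89 CPM in control, log2 ratios of 3.93 (1.35 to 9.28) and 4.37 (3.55 to 5.34). Fezf2 had 33 and 168 UMIs in the cleaned set, against 0 in ON bipolar cells. Irx5, an Iroquois homeobox factor known in mouse from OFF cone bipolar cells, had 127 CPM against 8.05 CPM (1 UMI) in Alk1 ECKO and 48.0 CPM against 2.87 CPM in control. Its log2 ratios were 3.98 (1.40 to 9.32) and 4.06 (2.80 to 5.72). Its relative Irx6 had 96.8 CPM against 0 UMIs in Alk1 ECKO, under the UMI minimum, and 74.7 CPM against 3.44 CPM in control. Of the 28 bipolar transcription factors counted, 13 were measured in the cleaned set, 2 were higher, Irx5 and Fezf2, and 0 were lower, beside 1.05% and 0.372% of all measured genes. In Alk1 ECKO the UMIs of Irx5 and Fezf2 came almost wholly from Scgn Vsx1 cells. Both thus met the UMI minimum through the class where they were high, and the 2 calls support no direction. The median log2 ratios of the 13 measured factors were 0.24 in Alk1 ECKO and 0.51 in control.

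The remaining higher calls were mixed. Pcp4, a calmodulin regulator, had 826 CPM against 161 CPM in Alk1 ECKO and 777 against 245 CPM in control, log2 ratios of 2.36 (1.70 to 3.10) and 1.66 (1.51 to 1.82). Cabp1, a calmodulin-like calcium sensor, had 424 CPM against 88.5 CPM in Alk1 ECKO and 281 against 98.2 CPM in control. Gucy1b1, a subunit of the nitric oxide receptor, had 179 CPM against 16.1 CPM (2 UMIs) in Alk1 ECKO and 98.7 against 27.6 CPM in control. Fat3, an atypical cadherin, had 104 CPM against 16.1 CPM (2 UMIs) in Alk1 ECKO and 121 against 14.9 CPM in control. Ly6h, Cd200, Rnd3 and Sncb were called higher as well. Fat3, Cd200 and Sncb were not called in the cleaned set, where Fat3 was under the UMI minimum in Alk1 ECKO, and the Alk1 ECKO log2 ratios were 1.72 (0.016 to 4.08) for Cd200 and 1.74 (0.53 to 3.25) for Sncb. Gngt2, a cone gene, was called higher in the cleaned set alone, with a mean log2 ratio of 1.93 over both libraries.

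Values are given for the glutamate receptor genes Gria2 and Grik1. Gria2, an AMPA receptor subunit, had 156 CPM against 48.3 CPM in Alk1 ECKO, a log2 ratio of 1.70 (0.45 to 3.22), and 163 against 33.9 CPM in control, 2.27 (1.87 to 2.69). It was called in the cleaned set alone. Grik1, a kainate receptor subunit of OFF bipolar cells, had 81.9 CPM against 80.5 CPM in Alk1 ECKO, a log2 ratio of 0.03 (-1.11 to 1.27), and 137 against 73.5 CPM in control, 0.90 (0.60 to 1.21). Of 13 ribbon synapse genes measured in the cleaned set, 0 were called, beside 1.05% higher and 0.372% lower of all measured genes. A count of 0 in a list of this size is near that background. Their median log2 ratios were 0.42 in Alk1 ECKO and 0.16 in control.

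Of the 6 lower genes, 5 had a gene name and 1 was a predicted gene. Prox1, a homeobox factor, had 85.6 CPM in Alk1 ECKO Scgn Vsx1 cells, against 274 CPM in ON bipolar cells, a log2 ratio of -1.68 (-2.51 to -0.87). In control Prox1 had 222 against 772 CPM, -1.80 (-1.95 to -1.65). Trnp1 had 227 against 700.0 CPM in Alk1 ECKO and 139 against 673 CPM in control. Ndnf, a secreted neurotrophic factor, had 112 against 370.1 CPM in Alk1 ECKO and 134 against 586 CPM in control. Tgfb2, a TGF-beta ligand, had 134 against 434 CPM in Alk1 ECKO and 146 against 404 CPM in control. Ptgds, prostaglandin D synthase, had 52.1 against 185 CPM in Alk1 ECKO and 36.01 against 138 CPM in control. All 5 were called lower in the cleaned set too.

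**Figure D3:**
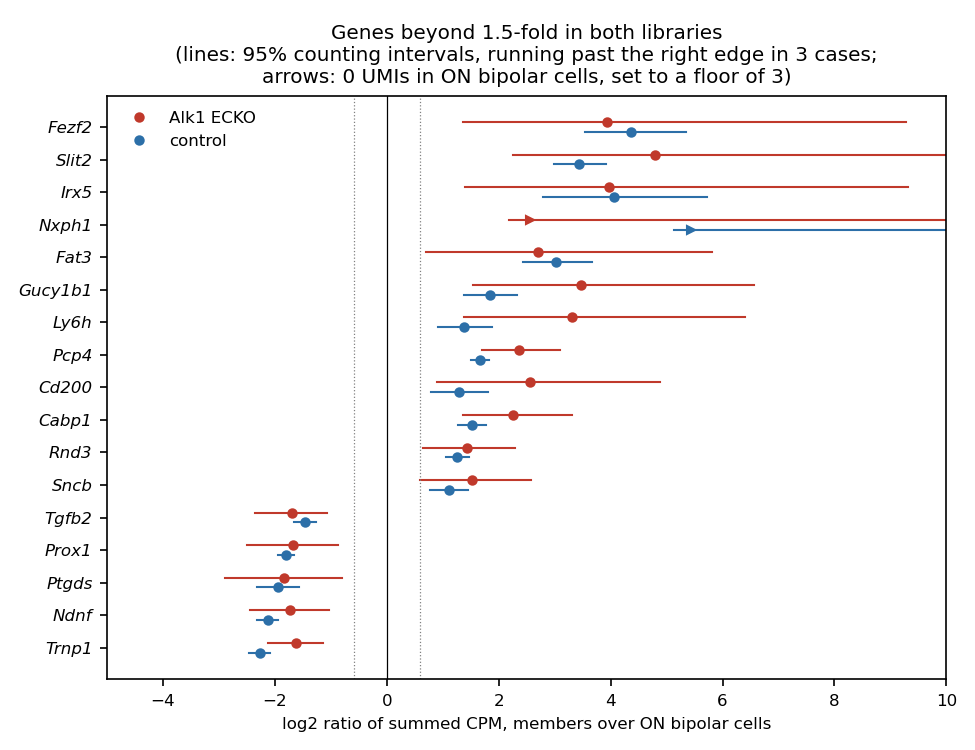
Log2 ratios of summed CPM in Scgn Vsx1 cells (members) over ON bipolar cells for the named called genes, Alk1 ECKO in red and control in blue, with 95% counting intervals and dotted lines at 1.5-fold; lines of Nxph1 and the Alk1 ECKO line of Slit2 run past the right edge, and triangles mark Nxph1, with 0 UMIs in ON bipolar cells, at a floor of 3. The 12 genes at the top lie right of 1.5-fold and the 5 at the bottom left of it in both libraries.

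The promoters of 3 genes are shown: Nxph1, with 0 UMIs in ON bipolar cells, Vsx1, a selecting gene, and Cabp5, counted as an ON gene in the rule. Cabp5 had a UMI in 17.4% of Alk1 ECKO and 11.6% of control Scgn Vsx1 cells too. Each sequence runs 5′ to 3′ on the gene's strand from 250 bases before to 50 bases after the RefSeq start (GRCm38.p6). Nxph1 lies at chr6:8949769-8950068 (plus), Vsx1 at chr2:150689088-150689387 (minus) and Cabp5 at chr7:13397905-13398204 (plus). Capitals mark TAATCC, the core of the OTX and CRX site, searched on both strands as TAATCC or GGATTA, and CAGCTG, an E-box of bHLH factors. The motifs do not overlap each other.
Nxph1: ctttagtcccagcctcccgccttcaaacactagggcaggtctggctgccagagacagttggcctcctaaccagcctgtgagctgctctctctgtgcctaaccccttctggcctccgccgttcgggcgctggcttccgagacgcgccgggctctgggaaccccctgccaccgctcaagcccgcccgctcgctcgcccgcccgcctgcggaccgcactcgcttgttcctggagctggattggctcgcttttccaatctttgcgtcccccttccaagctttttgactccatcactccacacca
Vsx1: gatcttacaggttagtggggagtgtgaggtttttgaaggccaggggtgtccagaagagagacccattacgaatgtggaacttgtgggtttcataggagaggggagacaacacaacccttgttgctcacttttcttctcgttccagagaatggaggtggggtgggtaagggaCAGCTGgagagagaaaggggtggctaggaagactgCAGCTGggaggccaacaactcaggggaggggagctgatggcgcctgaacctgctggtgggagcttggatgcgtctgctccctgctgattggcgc
Cabp5: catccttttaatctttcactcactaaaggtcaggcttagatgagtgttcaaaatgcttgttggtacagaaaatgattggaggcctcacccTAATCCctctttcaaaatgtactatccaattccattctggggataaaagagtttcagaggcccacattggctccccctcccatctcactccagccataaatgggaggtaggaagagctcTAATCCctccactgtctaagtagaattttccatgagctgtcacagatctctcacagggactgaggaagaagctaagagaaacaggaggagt
Of 19 genes looked up, 16 had an entry. Irx5, Irx6 and Zfhx4 were not matched. TAATCC was found at 3 of the 16 genes, Trpm1, Isl1 and Cabp5, and in 7.06% of all 32851 promoters of this length. CAGCTG was found at 3 genes, Vsx1, Tmem215 and Isl1, and in 16.3% of all promoters. The Vsx1 window held it at bases 172 and 207 and the Cabp5 window held TAATCC at bases 91 and 210. These are matches of letters and not shown to be sites.

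Scgn Vsx1 cells were not uniform. Nxph1 had 12.3, 14.6, 273 and 365 CPM in Alk1 ECKO cells with 3, 4, 5 and 6 selecting genes, and 14.6, 52.6, 106 and 173 CPM in control. Irx6 had 12.3, 29.2, 137 and 313 CPM in Alk1 ECKO and 13.3, 40.9, 93.96 and 209 CPM in control. Slit2 had 148, 160.4, 323 and 286 CPM in Alk1 ECKO and 111, 213, 362 and 530.1 CPM in control. All 3 genes were higher in cells with 6 selecting genes than in cells with 3, in both libraries. In the cleaned set Nxph1 had 15.7, 0, 450 and 365 CPM in Alk1 ECKO and 16.2, 24.9, 169 and 232 CPM in control. Irx6 had 15.7, 68.3, 236 and 313 CPM there in Alk1 ECKO and 32.5, 45.6, 148 and 292 CPM in control. Slit2 had 189, 103, 557 and 286 CPM in Alk1 ECKO and 182, 195, 535 and 583 CPM in control. This grouping uses the counts of the rule and is no test.

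Pairs of genes were unevenly combined within single cells. Isl1, a LIM homeobox factor, and Fezf2 were rarely together. Fezf2 had a UMI in 1 of 17 Alk1 ECKO cells with Isl1 (5.88%) and 51.7% of those without, and in 7 of 96 control cells with Isl1 (7.29%) and 48.6% of those without. In the cleaned set Isl1 had a UMI in 8.33% of Alk1 ECKO cells with Nxph1 and 48.1% of those without, and in 7.32% of control cells with Nxph1 and 41.6% of those without. The opposite held for Fezf2 and Pcdh17, a protocadherin. Pcdh17 had a UMI in 43.8% of Alk1 ECKO cells with Fezf2 and 13.3% of those without, and in 50.5% and 19.1% in control. Nxph1 had a UMI in 45.5% of Alk1 ECKO cells with Irx6 and 25.7% of those without, and in 36.3% and 11.9% in control. Isl1 is a gene of the rule, whose limit of fewer than 3 ON genes constrains it.

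ON genes were present within that limit. Grm6 had a UMI in 52.2% of Alk1 ECKO and 46.8% of control Scgn Vsx1 cells, against 1.02% and 1.42% of rods and 82.4% and 82.3% of ON bipolar cells. Thinned, these were 43.5% and 28.0% of Scgn Vsx1 cells. Lhx3 was found in 87.5% of Alk1 ECKO Scgn Vsx1 cells with Grm6 and 31.8% of those without, and in 70.3% and 46.1% in control. Trpm1 was found in 1 Alk1 ECKO and 2 control Scgn Vsx1 cells, 2.17% and 0.645%, against 0% and 0.0805% of rods, and in 23.5% and 25.3% of ON bipolar cells. Prkca, protein kinase C alpha of rod bipolar cells, had a UMI in 6.52% and 15.2% of Scgn Vsx1 cells, below the 15.1% and 24.3% of rods.

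Clustering the 253 cells of the cleaned set gave 7 sub-clusters at resolution 0.8. They are given by number and leading genes, with no adult type assigned, and the leading genes describe the clustering and are no test. Cluster 0 held 11 Alk1 ECKO and 47 control cells, with Nxph1 at 262 CPM against 77.6 in the other cells, Irx6 at 246 against 84.8 and Neto1, a kainate receptor auxiliary subunit, at 65.4 against 14.3. The rod gene Rp1, at 119 against 17.4 CPM, had rank 1 among its 8 leading genes, and Nts, at 339 against 82.8 CPM, had rank 2. Both stood ahead of Nxph1. Nts had 1329 CPM in the Alk1 ECKO cells of cluster 0 and 118 CPM in its control cells. The rod gene Pdc, at 185 CPM, was a leading gene as well. Cluster 5 held 5 Alk1 ECKO and 13 control cells and was highest in Nxph1, at 607 CPM against 76.0. Its other leading genes included Ebf1 at 351 against 16.6 CPM, Ntng1 at 415 against 14.8 CPM and Irx5 at 479 against 44.5 CPM. Nxph1 had a UMI in 27 of 58 cells of cluster 0 and 17 of 18 cells of cluster 5.

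Cluster 2, with 10 Alk1 ECKO and 39 control cells, combined Isl1 with Vsx1. Its leading genes were Rprm, a p53 target, at 842 CPM against 41.7, Isl1 at 1934 against 287 and Reln, an extracellular matrix protein, at 125 against 5.96. Grm6 stood at 704 CPM and Vsx1 at 1174 CPM there, each with a UMI in 44 of 49 cells, and Fezf2 had 0 UMIs. Cluster 4, with 5 Alk1 ECKO and 26 control cells, was led by Pcp4 at 4522 against 587 CPM, Pcdh17 at 699 against 83.8 CPM and Fezf2 at 556 against 112 CPM. Slit2 stood at 799 CPM in cluster 4 and 1086 CPM in cluster 5, and at 37.5 CPM in cluster 1.

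Cluster 1, with 6 Alk1 ECKO and 45 control cells, was led by Rgs16 at 127 against 17.5 CPM and Chodl at 139 against 22.6 CPM. It had low Vsx1, 127 CPM, and Isl1 at 821 CPM. Cluster 3, with 2 Alk1 ECKO and 36 control cells, was led by Sall3, a zinc finger factor, at 226 against 11.2 CPM and Nfib at 458 against 63.3 CPM. Cluster 6, with 0 Alk1 ECKO and 8 control cells, was led by Hes5 at 1398.5 against 25.9 CPM and Meis2 at 511 against 21.6 CPM, and its median depth was 9891.5 UMIs. With all 356 cells, 1 of 7 sub-clusters was led by Rp1, and 67 of its 71 cells held at least 4 rod genes.

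**Figure D4:**
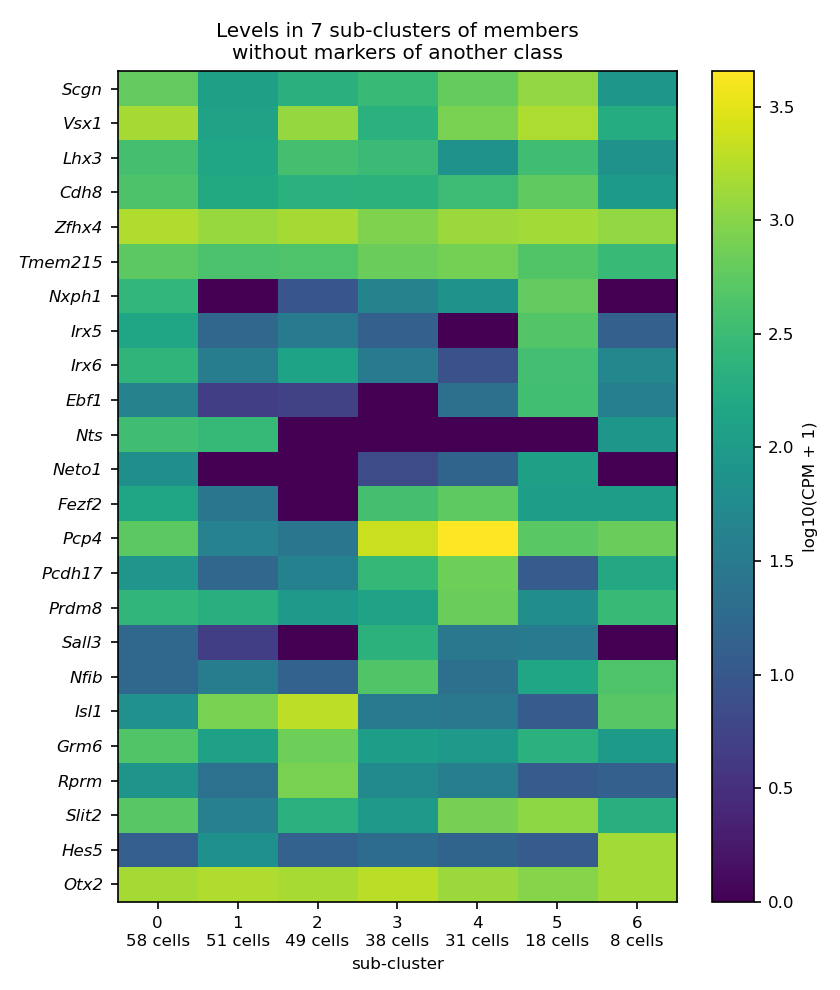
Levels, as log10(CPM + 1), of 24 genes in the 7 sub-clusters of the cleaned set, both libraries together. Nxph1 is brightest in cluster 5 and cluster 0, Pcp4, Pcdh17 and Fezf2 in cluster 4, Isl1 and Rprm in cluster 2, and Hes5 in cluster 6, while Otx2 is bright in all 7.

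The last comparison set Alk1 ECKO against control within Scgn Vsx1 cells. Of 8599 measured genes, with at least 30 UMIs over both libraries, 55 were higher in Alk1 ECKO beyond 1.5-fold (0.64%) and 98 were lower (1.14%), and the median log2 ratio was -0.15. Relative to that median 106 were higher and 62 were lower, so the side with more calls depends on the centring. In the cleaned set 32 of 6357 genes were higher (0.503%) and 53 were lower (0.834%), with a median of -0.12. With all cells, Mdk was lowest of the named called genes with at least 50 CPM in 1 library, at -3.87. It had 1 UMI in Alk1 ECKO and 122 in control. Mdk was not among the 12 lowest such genes of the cleaned set, which ended with Pik3r1 at -2.48. AY036118 was at -2.52 (24 and 1153 UMIs), and at -2.73 in the cleaned set. Fbxo3 was at -2.45 and -2.55, and Hsph1 at -2.34 and -2.99. The predicted gene Gm42418 had 686 of 268665 UMIs in Alk1 ECKO and 27321 of 2249258 in control. What produced these differences was not tested. Library and genotype cannot be told apart here.

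Several genes of glycolysis and the hypoxia response were higher in Alk1 ECKO Scgn Vsx1 cells. Gapdh, a glycolytic enzyme, had a median of 3836 CPM per cell (1211 to 7068) in 46 Alk1 ECKO cells and 1639.5 CPM (0 to 4504) in 310 control cells, so the ranges overlapped. Its summed level was 3436 CPM in Alk1 ECKO and 1654 CPM in control, a log2 ratio of 1.05 (0.95 to 1.16). Cells of the cleaned set gave 4047 and 1830 CPM, a log2 ratio of 1.15 (1.02 to 1.27). Bnip3, a mitophagy receptor and target of hypoxia-inducible factor, had 357 CPM in Alk1 ECKO and 136 CPM in control, 1.39 (1.04 to 1.72), with a UMI in 31 of 46 and 170 of 310 cells. In the cleaned set the log2 ratio of Bnip3 was 1.25. Pgk1, phosphoglycerate kinase, had 778 CPM in Alk1 ECKO and 381 CPM in control, 1.03 (0.80 to 1.25). Higd1a, a mitochondrial protein induced by hypoxia, had 462 CPM in Alk1 ECKO and 214 CPM in control, 1.11 (0.81 to 1.39). Ankrd37, another hypoxia-induced gene, had 216 CPM in Alk1 ECKO and 78.7 CPM in control, 1.46 (1.002 to 1.89).

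Of the 30 genes of the hypoxia and glycolysis list, 25 were measured in the cleaned set. There were 12 higher in Alk1 ECKO and 0 lower, beside 0.503% and 0.834% of all measured genes. Their median log2 ratio was 0.84, beside -0.12 over all measured genes. With all cells 11 of 25 were higher, with a median of 0.77. Ldha, lactate dehydrogenase, had 1467 CPM in Alk1 ECKO and 798 CPM in control in the cleaned set, 0.88 (0.67 to 1.08), and Egln1, an oxygen-sensing prolyl hydroxylase, 253 and 88.6 CPM, 1.51 (0.97 to 2.04). Vegfa, the angiogenic ligand induced by hypoxia, had 45.0 CPM in Alk1 ECKO and 77.3 CPM in control, -0.78 (-2.04 to 0.26), and was not called. Slc2a1, the glucose transporter, had a log2 ratio of 1.37 (0.78 to 1.93) with all cells, where 1 cell gave 37.1% of its Alk1 ECKO UMIs, and 0.99 (-0.04 to 1.93) in the cleaned set. None of 25 nuclear genes of oxidative phosphorylation was called, and their median was 0.44 in the cleaned set and 0.24 with all cells.

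Members of the same list were higher in the other classes. In the cleaned sets 7 of 22 measured members were higher in Alk1 ECKO in ON bipolar cells (median 0.75), beside 0.46% of all genes measured there. In rods 7 of 29 were higher (median 0.42), beside 7.21%. Rods were not cleaned, and 11 of 12 endothelial, 10 of 10 microglial and 5 of 8 measured mural markers were higher in Alk1 ECKO rods too. Microglial markers summed to 1689 CPM in Alk1 ECKO rods and 58.5 CPM in control rods, and their part in the rod values was not tested. Gapdh had log2 ratios of 0.95 in ON bipolar cells and 0.66 in rods. Differences between classes were not tested.

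**Figure D5:**
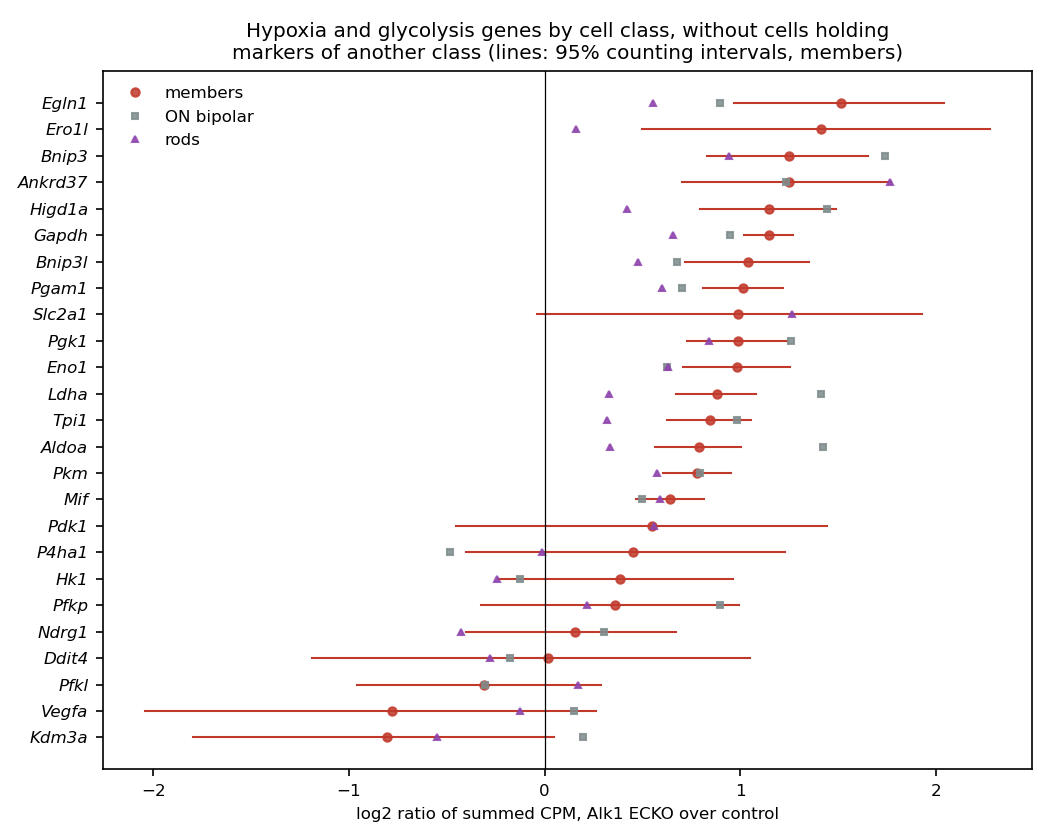
Log2 ratios of summed CPM, Alk1 ECKO over control, for the 25 measured hypoxia and glycolysis genes in Scgn Vsx1 cells (members, red circles with 95% counting intervals), ON bipolar cells and rods; bipolar cells holding markers of another class are left out. Red circles run from Egln1 at 1.51 at the top to Kdm3a at -0.80 at the bottom, and every plotted class lies right of 0 for the genes from Egln1 down to Mif.

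A few neuronal genes differed between the libraries. Irx5 had 127 CPM in Alk1 ECKO Scgn Vsx1 cells and 48.0 CPM in control, 1.40 (0.80 to 1.97), with a UMI in 11 of 46 and 60 of 310 cells. Irx5 was at 1.64 (0.99 to 2.27) in the cleaned set. It was the single gene called higher among 25 measured bipolar transcription factors, and Crx and Nfib were called lower, beside 0.64% and 1.14% of all genes. Nfib was at -1.74 (-2.59 to -1.003) with all cells and -1.94 (-3.41 to -0.78) in the cleaned set. Nfib was among the leading genes of cluster 3, which held 2 of 39 Alk1 ECKO and 36 of 214 control cells of the cleaned set, and the part of this in the Nfib value was not tested. Crx was at -1.04 with all cells and -0.35 in the cleaned set, where it was not called. Igfbp2, a secreted IGF-binding protein, had 354 CPM in Alk1 ECKO and 104 CPM in control, 1.76 (1.40 to 2.11). It was at 1.44 in the cleaned set and 1.40 in rods. Mapt, the microtubule protein tau, had 214 CPM in Alk1 ECKO and 66.0 CPM in control in the cleaned set, 1.69 (1.08 to 2.28). Grm6, a gene of the rule, had 372 CPM in Alk1 ECKO and 165 CPM in control. Prox1 had 85.6 CPM in Alk1 ECKO and 222 CPM in control, -1.37 (-2.04 to -0.77), and was at -1.53 in rods. Jun, an immediate early gene, had 149 CPM in Alk1 ECKO and 496 CPM in control, -1.74 (-2.23 to -1.28), and was at -0.70 in rods. The values of Prox1 and Jun in Scgn Vsx1 cells include cells with markers of another class.

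Of the markers of the class, Nxph1 was at 0.92 (0.37 to 1.44), Vsx1 at 0.48 (0.25 to 0.70), Lhx3 at 0.56 (0.15 to 0.94), Cdh8 at 0.46 (0.07 to 0.82), Slit2 at -0.29 (-0.70 to 0.09) and Scgn at -0.23 (-0.63 to 0.14), and none was called. Among 32 measured adhesion genes and 24 ribbon synapse genes 0 were called, with medians of -0.17 and -0.32. Of 15 measured receptors and effectors of BMP and TGF-beta signalling, 0 were called, with a median of -0.68. With 0.64% of all genes called higher and 1.14% lower, a count of 0 in lists of this size is near the background. In the cleaned set 0 of each list were called too, and the medians were -0.13 for adhesion, -0.07 for ribbon synapse and -0.44 for BMP and TGF-beta genes.

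Several high ratios rested on 1 cell. Cldn5, a tight junction gene of endothelium, had a log2 ratio of 4.002 with 94.03% of its Alk1 ECKO UMIs in 1 cell, and Klf2, a flow-responsive factor, 5.07 with 87.5% in 1 cell. All Alk1 ECKO UMIs of Crabp1 and of Hist1h1b came from 1 cell each. Nts, the neurotensin gene, had 1.80, with 96.8% of 63 UMIs in 1 of the 2 Alk1 ECKO cells that held it, and this cell belonged to the cleaned set. Without the Alk1 ECKO cell of 25255 UMIs, 46 of 8569 genes were higher and 98 were lower. Rods, which should lack Cldn5, had 512 CPM in Alk1 ECKO and 117 CPM in control.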

How the data were processed

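A pair of 10x Genomics 3′ single-cell libraries was analysed, 1 per genotype. The deposited matrices hold UMI counts per gene and barcode for 32285 features. Per the file headers the counts were written by Cell Ranger 5.0.1, whereas version 6.1.1, FastQC 0.11.9 and mm10 are listed per the submitters' processing notes. Library totals were 62728605 UMIs in Alk1 ECKO and 54800465 in control. Members and gene lists were chosen with earlier results of these data known.

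Counts were summed per class and library and scaled to CPM. Intervals are exact Poisson for levels, Clopper-Pearson for shares and exact conditional binomial for ratios, at 95%. They cover counting error only. A gene was measured at 30 UMIs and called when the whole interval lay beyond 1.5-fold, in both libraries for ratios between classes. A group at 0 was set to a floor of 3 UMIs per library. The ratio between genotypes was run on simulated independent Poisson counts, which is what the intervals assume. That run cannot show how they behave for genes carried by 1 cell. Calls between classes were not simulated. The genes of the 2 rules and of 29 lists were named, with up to 15 called genes per direction against ON bipolar cells, 12 between genotypes and 8 per sub-cluster. A planned comparison with another group of cells and some genes, also taken out of the lists, are not reported here. Predicted, ribosomal, mitochondrial, haemoglobin and sex-linked genes were left out of the names, except Gm42418. Sub-clusters used 1500 variable genes, 15 components, 15 neighbours and the Leiden method at resolution 0.8. Scrublet called 14 Alk1 ECKO and 1 control barcodes, under 0.5% in control, so its calls were not used. No doublets were removed, and an alternative took out the highest scores. Alternatives changed the rule, filters, scaling, thresholds and clustering. Tools were Python 3.11.15, numpy 2.4.6, scipy 1.17.1, scanpy 1.11.5, leidenalg 0.10.2 and matplotlib 3.10.9. Promoters came from RefSeq (GRCm38.p6).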

Additional observations from a re-analysis of the deposited data

Results flagged for a closer look

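Ptn and Col4a1 had ratios of opposite sign in the 2 libraries when Scgn Vsx1 cells were set against ON bipolar cells. Ptn, a secreted growth factor, had a log2 ratio of -2.43 in Alk1 ECKO and 0.996 in control. Col4a1, a basement membrane collagen, had 3.56 in Alk1 ECKO, from 189.8 CPM against 16.1 CPM (2 UMIs), and -1.30 in control, from 33.3 against 82.1 CPM. A single cell carried 44 of the 51 Col4a1 UMIs of Alk1 ECKO Scgn Vsx1 cells (86.3%), and a single cell carried 54 of 75 in control (72.0%). In the cleaned set Col4a1 was at 0.35 in Alk1 ECKO and -0.70 in control. The difference between the libraries was not tested for either gene.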

How the results depend on the processing

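The share of Scgn Vsx1 cells was lower in Alk1 ECKO than in control under each setting listed here. In Alk1 ECKO it was 2.57% with at least 2 selecting genes, 1.09% with at least 4, 1.05% with fewer than 2 ON genes, 2.32% with no ON limit and 1.11% with no lower mitochondrial limit. In control it was 6.51%, 2.86%, 2.76% and 7.70% under the same gene settings, 3.44% after thinning and 2.82% without other-class cells. Thinned Otx2 shares were 87.0% in Alk1 ECKO and 88.9% in control. Against ON bipolar cells, 11 genes were lower by the mean of per-cell CPM, 3 higher and 1 lower with at least 100 UMIs, and 8 and 3 beyond 2-fold. Between genotypes, 51 were lower with at least 4 selecting genes, 35 higher after removal of the highest doublet scores, 106 higher and 62 lower relative to the median, 259 lower by the mean of per-cell CPM, 15 and 24 beyond 2-fold, and 32 and 53 without other-class cells. Higher calls were 35.9% of genotype calls, 63.1% relative to the median, 46.9% with at least 4 selecting genes and 17.5% by per-cell CPM. Resolution 1.2 gave 11 sub-clusters. Of 884 named-gene values under alternatives, 764 lay within the interval, 119 outside it, and 1 changed sign. That was Crabp1 between genotypes, at -0.32 with fewer than 2 ON genes. The settings of at least 100 UMIs and of 2-fold left each ratio as it was, so their 48 and 89 values could not move. At least 2000 UMIs kept 46 Alk1 ECKO and 307 control Scgn Vsx1 cells, so its 89 values could hardly move. The cause of the changes between settings was not tested. No paired analysis was possible because each genotype had 1 library. The 46 Alk1 ECKO Scgn Vsx1 cells and 17 ON bipolar cells limit the depth.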

Other observations

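Among barcodes outside the filters, 1 of 2544 in Alk1 ECKO and 17 of 1156 in control met the gene rule. Of these, 1 in Alk1 ECKO and 11 in control had mitochondrial UMIs below 1%.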
